A study of Mus musculus with 12 samples.

Results

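The trimethylation of lysine 27 of histone H3 (H3K27me3) was mapped across the start sites of the wild type mouse forebrain at E12.5, a stage of early cortical neurogenesis. The map rests on 2 of the 12 libraries of the series, 1 made with an antibody to H3K27me3 and 1 with a control IgG, together with the authors' list of H3K27me3 peak summits. All 55385 windows of the authors' promoter tables and all 10662 summits were used; 55383 of the windows span 2 kb around an annotated start site. Per the labels, both libraries came from untreated wild type C57BL/6 embryos and were made by CUT&Tag, where a transposase bound to the antibody cuts and tags nearby DNA. The wild type H3K27ac, RNA-Pol2, Eed and input libraries are set beside them, the last 2 from chromatin immunoprecipitation of cross-linked chromatin (X-ChIP); the IgG library of the EedcKO genotype serves only as another control. The sources used here give neither the number nor the sex of the embryos behind a library. Forebrain tissue holds several cell types, so a mark in fewer cells and less of it in each cell cannot be told apart.

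H3K27me3 is laid down by Polycomb repressive complex 2 (PRC2), whose methyltransferase is Ezh2 or Ezh1 and whose subunit Eed binds the mark and stimulates the enzyme. The mark is known for lying over the start sites of silent developmental regulators, among them the Hox genes, and Polycomb repressive complex 1 (PRC1) reads it through its Cbx proteins. In the developing brain it covers regulators of other regions and lineages, and it is lost from or gained at neuronal genes as progenitors differentiate. H3K27ac, which cannot sit on the same lysine at the same time, marks active promoters and enhancers.

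The H3K27me3 library held 3161526 counts over the windows and the IgG library 1412310. Counts were divided by these totals to give CPM, counts scaled to a common library size, and the ratio is log2 of (H3K27me3 CPM + 1) over (IgG CPM + 1). A window at least 4-fold over IgG is called enriched. Each target has 1 library, so differences lack a replicate check and carry no p-value. Intervals of a ratio are 95% Clopper-Pearson (exact), taken from the raw counts without a pseudocount, and cover counting error only. The median window lay at -0.96 on this log2 scale, and a ratio near -0.96 is that of an ordinary window.

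Enriched were 2087 of the 55385 windows (3.77%), and 5459 (9.86%) were at least 4-fold under IgG. Scaled to the same median window instead, the split was 3721 enriched and 346 under IgG. The 2087 windows held 43.9% of all H3K27me3 counts in the table and 3.89% of the IgG counts. The other windows had a median of 25 counts in H3K27me3 and of 25 in IgG, and the enriched ones 552 and 25 (chromosomes Y and M left out). At the limit of the rule, Jdp2 was inside with 126 H3K27me3 and 13 IgG counts, and Sox10, a neural crest and oligodendrocyte regulator, was outside with 493 and 54.

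**Figure D1:**
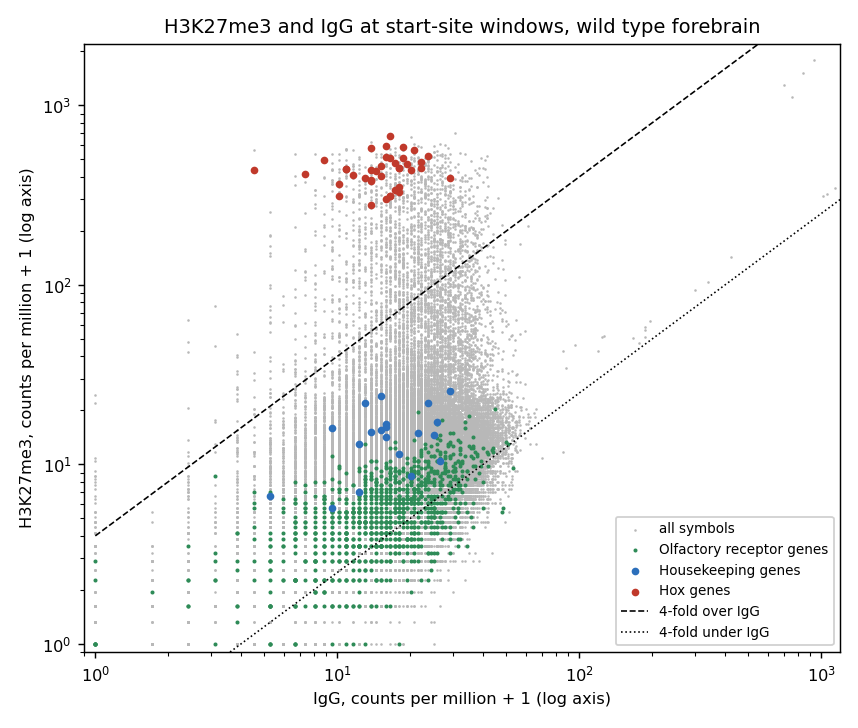
H3K27me3 (vertical) against IgG (horizontal) in CPM plus 1, both on log axes, 1 point per gene symbol. Hox genes (red) lie above the dashed 4-fold line, with 883 to 2136 H3K27me3 counts, while housekeeping genes (blue) and olfactory receptor genes (green) lie below it.

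Promoter sequences from both ends of the ratio are shown because these genes head and close the list. Each is 300 bases from RefSeq (GRCm38.p6), 250 before to 50 after the start of transcription, 5′ to 3′, with CpG dinucleotides in capitals. Hoxa3 (chromosome 6, 52213018 to 52213317, minus strand), Irx2 (chromosome 13, 72628570 to 72628869, plus strand) and Hmx3 (chromosome 7, 131542713 to 131543012, plus strand) had the 3 highest ratios among protein-coding genes with such a sequence.

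Hoxa3: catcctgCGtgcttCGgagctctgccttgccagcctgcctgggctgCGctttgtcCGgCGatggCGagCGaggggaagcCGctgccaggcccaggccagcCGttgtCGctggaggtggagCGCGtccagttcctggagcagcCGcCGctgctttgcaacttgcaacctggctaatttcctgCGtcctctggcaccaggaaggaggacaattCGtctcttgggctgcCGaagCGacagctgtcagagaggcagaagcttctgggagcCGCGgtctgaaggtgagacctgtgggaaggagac

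Irx2: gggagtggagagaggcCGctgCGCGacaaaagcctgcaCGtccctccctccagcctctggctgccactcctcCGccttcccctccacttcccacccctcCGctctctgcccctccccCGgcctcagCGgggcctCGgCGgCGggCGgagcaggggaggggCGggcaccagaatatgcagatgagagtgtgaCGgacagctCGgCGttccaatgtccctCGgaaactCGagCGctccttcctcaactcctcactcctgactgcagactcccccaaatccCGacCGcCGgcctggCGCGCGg

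Hmx3: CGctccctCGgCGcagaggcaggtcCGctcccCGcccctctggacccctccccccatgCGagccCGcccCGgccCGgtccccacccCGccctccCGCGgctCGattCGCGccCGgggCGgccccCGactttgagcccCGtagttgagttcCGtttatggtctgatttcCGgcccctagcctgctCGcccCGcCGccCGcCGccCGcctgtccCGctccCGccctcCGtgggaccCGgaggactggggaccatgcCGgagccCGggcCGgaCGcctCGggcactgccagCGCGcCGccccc

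Psg25 (chromosome 7, 18532178 to 18532477, minus strand) and Impg1 (chromosome 9, 80465389 to 80465688, minus strand) had the lowest ratios among genes with at least 50 IgG counts.

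Psg25: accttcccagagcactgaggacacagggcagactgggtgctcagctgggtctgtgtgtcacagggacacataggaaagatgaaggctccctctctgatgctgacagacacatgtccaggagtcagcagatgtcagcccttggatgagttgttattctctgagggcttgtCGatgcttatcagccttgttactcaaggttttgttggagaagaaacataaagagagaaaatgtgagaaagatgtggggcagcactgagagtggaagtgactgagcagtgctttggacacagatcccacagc

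Impg1: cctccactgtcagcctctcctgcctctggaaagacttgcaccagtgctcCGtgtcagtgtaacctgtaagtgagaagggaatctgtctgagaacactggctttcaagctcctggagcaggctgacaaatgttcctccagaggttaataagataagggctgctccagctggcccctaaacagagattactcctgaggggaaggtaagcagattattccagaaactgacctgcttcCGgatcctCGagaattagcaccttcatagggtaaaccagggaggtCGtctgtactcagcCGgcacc

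The peptidylprolyl isomerase gene Ppia (chromosome 11, 6415617 to 6415916, plus strand), a housekeeping gene chosen for its many CpGs after its values were seen, is set beside them.

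Ppia: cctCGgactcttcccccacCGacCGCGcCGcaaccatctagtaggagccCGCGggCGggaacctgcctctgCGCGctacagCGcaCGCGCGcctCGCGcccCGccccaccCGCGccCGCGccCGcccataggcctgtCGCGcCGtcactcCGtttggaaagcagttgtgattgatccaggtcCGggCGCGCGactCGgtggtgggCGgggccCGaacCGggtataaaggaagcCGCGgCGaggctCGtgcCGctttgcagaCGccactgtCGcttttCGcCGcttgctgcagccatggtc

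The 3 marked promoters hold 20, 25 and 39 CpGs, the promoters of Psg25 and Impg1 hold 1 and 5, and the unmarked promoter of Ppia holds 43. A comparison of CpG number over all genes is void, because only 951 of the 1430 enriched protein-coding genes (66.5%) had a RefSeq promoter within 1 kb of their window's start site.

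Homeobox and other developmental regulators headed the map. Hoxa3, a patterning gene of the anterior trunk and pharyngeal arches, had 1380 H3K27me3 counts against 5 IgG counts (log2 ratio 6.59, interval 5.72 to 8.57). Irx2, an Iroquois homeobox gene, had 1688 against 8 (6.33, interval 5.58 to 7.77), and Hmx3, a homeobox gene of the inner ear and hypothalamus, had 1690 against 10 (6.05, interval 5.36 to 7.30). These 3 windows (chromosome 6, 52212336 to 52214335; chromosome 13, 72627820 to 72629819; chromosome 7, 131541867 to 131543866) rest on 5 to 10 IgG counts, and their intervals are wide.

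Several of the next genes by ratio are known from other organs. They were Hoxa6 (1574 against 11 counts), Hoxa13 (1310 against 9), Foxl2, an ovary and eyelid regulator (1794 against 14), and Barx1, a stomach and branchial arch gene (1789 against 14). Gata6, of heart and endoderm, had 1508 against 12 counts, Nkx2-4 802 against 6, Foxd3, of the neural crest, 1374 against 12, and Foxc2, of the mesenchyme, 1252 against 11. Also among the highest 20 were Hoxc9, Hoxd12, Hoxa10, Gfi1, Hoxc11, Ebf3, Shox2 and Tbx3, with log2 ratios from 5.41 to 5.31. All of these named genes code for transcription factors.

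By level alone the order was similar but not the same. Hoxd12 had the most counts of any protein-coding gene, 2136 against 22, followed by Lbx1, a regulator of dorsal spinal interneurons and migrating muscle precursors (2108 against 27), and Pax2, of kidney and the midbrain-hindbrain boundary (1911 against 38). Also among the 20 highest were Mnx1, of motor neurons and pancreas (1855 against 30), Sim2 (1833 against 23), Wt1, of kidney and gonad (1792 against 25), and Ihh, the Indian hedgehog ligand (1712 against 44). Of the 100 highest ratios 24 were Hox genes and 77 belonged to the regulator lists below. Those lists were chosen with earlier results of these data known, and their share of all protein-coding genes was not counted. Of all 1430 enriched protein-coding genes, 212 (14.8%) belonged to them. Among those outside every list were Uncx (1042 against 13 counts), Onecut1 (1356 against 19), Hhex, of liver and forebrain (1624 against 25), Msx2 (1032 against 17), Dsp, the desmosomal desmoplakin (1027 against 17), and Fzd10, a Wnt receptor (981 against 14).

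Gene type set broad limits. Enriched were 1430 of 21396 protein-coding genes (6.68%) and 275 of 4954 long noncoding RNA genes (5.55%). Pseudogenes, with 25 of 8356 (0.299%), and small nucleolar RNA genes, with 2 of 1048 (0.191%), lay far below. Start sites within 2 kb of each other count the same reads: 11525 windows overlap another, and with 1 window of each overlapping set kept, 1706 of 49043 were enriched. Among 61 rRNA windows 13 were enriched, all on chromosome 8, but 9 of those had 0 IgG counts, and repeated copies cannot be told apart by short reads.

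The 39 Hox genes, which set position along the body axis behind the forebrain, were all enriched, against 6.68% of protein-coding genes. They had between 883 and 2136 H3K27me3 counts, median 1384, and between 5 and 40 IgG counts, median 21. Over the 39 genes the lowest H3K27me3 count, 883, lay above the highest IgG count, 40, both unscaled. Without replicate libraries the spread of counts at any Hox gene is not known. The median log2 ratio was 4.80, and the lowest of the list was 3.75 at Hoxc4 (1247 against 40 counts). Under each other pseudocount, scaling, filter, control and fold tried, all 39 were enriched.

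Every Hox start site of the 4 clusters carried the mark. In the HoxA cluster on chromosome 6 the 11 genes had 946 to 1613 H3K27me3 counts against 5 to 30 IgG counts. HoxB (chromosome 11, start sites from 96194316 to 96365752) had 883 to 1773 against 13 to 30, HoxC (chromosome 15, 102921103 to 103018934) 1039 to 1852 against 14 to 40, and HoxD (chromosome 2, 74668310 to 74762980) 986 to 2136 against 17 to 32. The count ranges of the 4 clusters overlap.

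Along HoxD the posterior genes Hoxd13, Hoxd12, Hoxd10 and Hoxd9 had 1516, 2136, 1875 and 1652 H3K27me3 counts, against 23, 22, 21 and 32 in IgG. Hoxd8, Hoxd4, Hoxd3 and Hoxd1 had 1214, 987, 986 and 1072, against 18, 22, 22 and 23. Hoxd11, between Hoxd12 and Hoxd10, had 1239 against 17, near the level of the second set. HoxB had no such order: Hoxb13 had 1773 counts, Hoxb8 883, Hoxb4 1384 and Hoxb1 1527, against 28, 18, 27 and 30 in IgG. The windows of Hoxd3 and Hoxd4, 2 bp apart in start site, count the same reads. Those of Hoxc5 and Hoxc10 overlap and share reads too. The window of Hoxa3 lies between those of Hoxa6 and Hoxa7.

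The limits of the domains were sharp on some sides. Left of HoxA the nearest window, Rps19-ps14, had 32 H3K27me3 counts against 17 in IgG. Between the last HoxA window and Evx1 (1462 against 31), a homeobox gene of spinal interneurons, Gm44294 had 169 against 18. At HoxD, Mtx2, a mitochondrial import gene, had 47 against 36, and at HoxB Gm11531 had 58 against 25. At HoxC 5730585A16Rik, 40.4 kb beyond the last window, still had 1129 against 27. Skap2, an adaptor gene farther out to the left of HoxA, was enriched again (513 against 22).

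**Figure D2:**
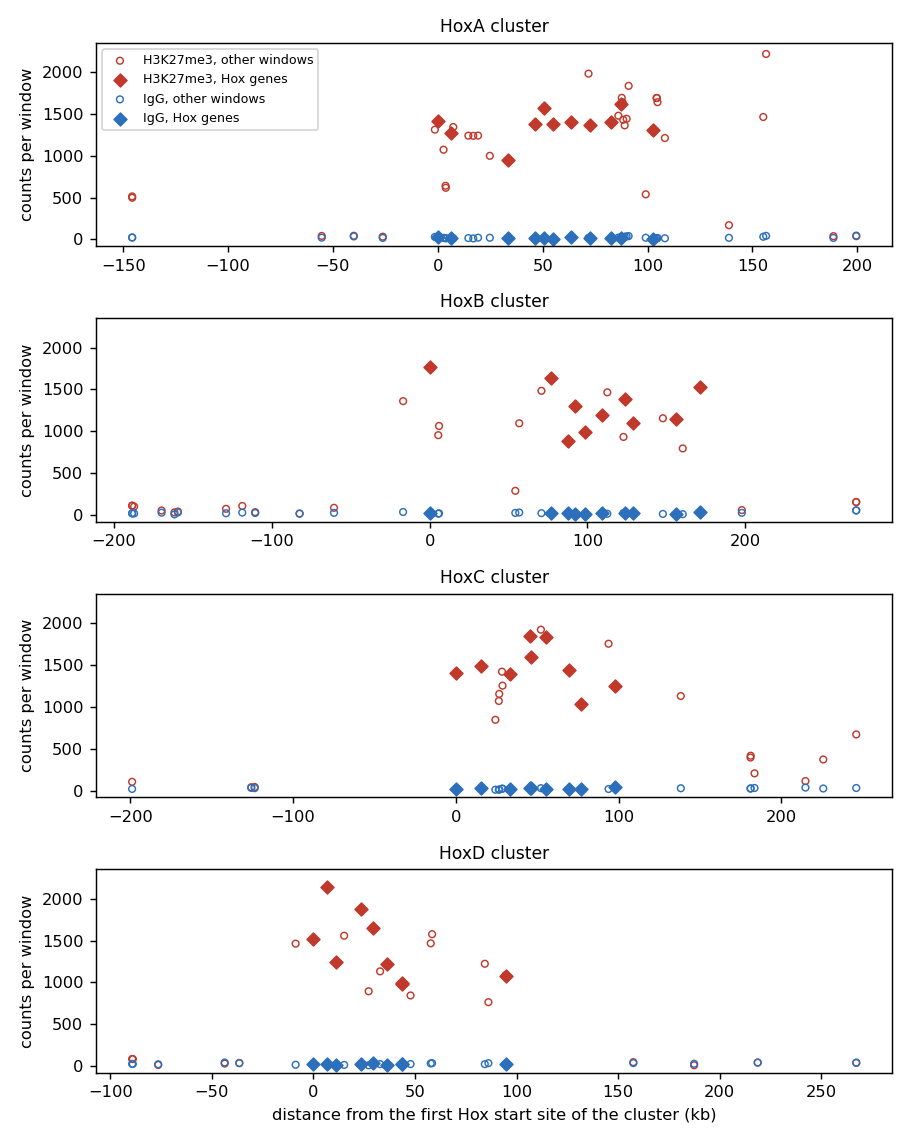
H3K27me3 counts (red) and IgG counts (blue) per 2 kb window across the 4 Hox clusters, by distance in kb from the first Hox start site; filled diamonds are Hox genes, open circles other windows. Hox windows hold 883 to 2136 H3K27me3 counts and at most 40 IgG counts, and the flanking windows fall towards the IgG level, with exceptions such as Skap2 and Evx1 at HoxA.

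The summit list marks these domains poorly. The authors' list held 1 summit within HoxA, 12 within HoxB, 1 within HoxC and 2 within HoxD, each cluster taken from its first to its last Hox start site. Only 4 of the 39 Hox genes had a summit inside the window, 2 in HoxB and 2 in HoxD, although all 39 were enriched. In HoxC the farthest Hox start site lay 54.0 kb from a summit. A summit list names 1 point of a peak, and the width of the peaks is not used here.

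MicroRNA genes inside the Hox clusters carried the same mark. Of 1197 microRNA windows 30 were enriched (2.51%), and 6 of the 7 highest with a RefSeq sequence lie in Hox clusters: Mir196b in HoxA (1980 H3K27me3 counts against 18 in IgG), Mir615 (1754 against 18) and Mir196a-2 (1922 against 28) in HoxC, Mir196a-1 (1483 against 21) and Mir10a (932 against 23) in HoxB, and Mir10b in HoxD (1467 against 32). The mature sequences, from RefSeq (GRCm38.p6), are shown because copies of 1 family lie in different clusters. Capitals mark the seed, bases 2 to 8.

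mmu-miR-196a-5p: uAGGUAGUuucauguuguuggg

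mmu-miR-196b-5p: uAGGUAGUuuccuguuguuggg

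mmu-miR-10a-5p: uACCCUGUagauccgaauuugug

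mmu-miR-10b-5p: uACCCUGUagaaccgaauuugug

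mmu-miR-615-3p: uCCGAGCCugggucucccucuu

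mmu-miR-132-3p: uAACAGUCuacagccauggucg

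mmu-miR-212-3p: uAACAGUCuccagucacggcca

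mmu-miR-129-5p: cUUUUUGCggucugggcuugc

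mmu-miR-219a-5p: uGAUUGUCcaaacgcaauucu

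The miR-196 copies of 3 clusters share the seed AGGUAGU, and miR-10a and miR-10b share ACCCUGU. Outside the Hox clusters, Mir212 and Mir132, neighbours on chromosome 11 with the shared seed AACAGUC and known from neurons, had 637 against 22 and 573 against 23 counts. Mir129-2 (684 against 18) and Mir219a-2 (581 against 23) overlap the antisense genes Mir129b and Mir219b, and the same reads count for both. Mir9-1, of the neural progenitor miRNA family miR-9, had 348 against 26, and Mir375, of endocrine cells, 980 against 44. The windows of Mir196b and Mir10a overlap those of Hoxa9 and Hoxb4 and share reads with them. Those of Mir615, Mir196a-1, Mir196a-2 and Mir10b overlap no Hox gene window used here, but lie in the same marked clusters.

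Other regulator families were marked almost as fully. All 6 Iroquois genes, all 6 Dlx genes and all 5 Zic genes were enriched, as were 13 of 14 Nkx, 11 of 12 LIM homeobox, 8 of 9 Pax, 5 of 6 Gata, 5 of 6 sine oculis-related homeobox and 12 of 16 T-box genes. The lists overlap, since a gene can belong to a family and to a region. Their medians ran from a log2 ratio of 3.78 (T-box) to 4.44 (Pax), all above the median of all windows. Under the alternatives other than the 2-fold and 8-fold rules, no family of these 9 had less than 66.7% of its members enriched. Of 21 proneural bHLH genes 16 were enriched, with a lower median of 2.93, and 61.9% were with EedcKO IgG or wild type input as the control.

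The members that escaped are few. Pax4, of pancreas and retina, had 23 H3K27me3 counts against 13 IgG counts, while the other 8 Pax genes had 960 to 1911. Lhx4, of the pituitary and motor neurons, had 255 against 59, Nkx6-3, of the stomach, 57 against 35, Six5 108 against 24, and Gata1, the erythroid regulator on chromosome X, 16 against 28. The T-box genes Tbx6, Tbx10, Tbx22 and Tbx19 had 46, 87, 13 and 21 counts against 17, 47, 16 and 33.

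Forkhead, Sox and Pou families divided. Of 44 Forkhead genes 27 were enriched, from Foxl2 (1794 against 14) and Foxd3 to Foxp2 (160 against 16), while broadly used members had few counts: Foxj3 had 39 against 17, Foxk1 60 against 17 and Foxn3 24 against 13. Of 19 Sox genes 10 were enriched. Sox17, of endoderm and endothelium, had 1445 against 15, and Sox14 1427 against 19. The neural progenitor genes Sox2, Sox1 and Sox3 had fewer, 267 against 8, 351 against 12 and 154 against 8, and the neuronal genes Sox11 and Sox4 were not enriched, with 37 against 11 and 23 against 14. Of 15 Pou genes 5 were enriched, among them the sensory neuron genes Pou4f1 (987 against 11) and Pou4f2 (1684 against 28) and the cortical gene Pou3f2 (242 against 21).

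Regulators of regions behind the forebrain were all enriched, 36 of 36 measured. Their median was 1336.5 H3K27me3 counts and 23.5 IgG counts (log2 ratio 4.44). Gbx2, of the anterior hindbrain, had 1685 against 20, En1, of the midbrain-hindbrain boundary, 1344 against 19, and Pax7, of dorsal neural tube and muscle, 1427 against 18. The lowest of the list was Dbx2 with 211 against 19. With wild type input as the control, with a pseudocount of 5 CPM and at 8-fold, 97.2% were enriched.

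Regulators of non-neural lineages were enriched in 41 of 58 cases, with a median log2 ratio of 3.75. Besides Gata6 and Sox17 they included Pitx1, of the hindlimb (1700 against 21), Twist1, of mesenchyme (1429 against 18), Cdx2, of the intestine (1638 against 25), Pdx1, of the pancreas (1499 against 26), Nkx2-5, of the heart (1119 against 22), and Tal1, of blood (1423 against 37). Those that were not marked are lineage genes too. Myf5, Myf6 and Myog, of skeletal muscle, had 22, 37 and 48 H3K27me3 counts against 37, 56 and 68 IgG counts, while Myod1 of the same family had 690 against 40. Runx1, Runx2, Spi1, Trp63 and Hnf4a had 15 to 51 counts and log2 ratios from -2.13 to -1.14.

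Ventral forebrain and interneuron genes were enriched in 24 of 27 cases, at lower counts than the hindbrain list. Their median was 626 H3K27me3 counts and 21 IgG counts (log2 ratio 3.67). Sp9 had 863 against 12, Lhx6, of migrating interneurons, 1231 against 30, Gsx2, of ganglionic eminence progenitors, 1232 against 42, Nkx2-1, of the medial eminence, 1342 against 38, and the GABA transporter gene Slc32a1 946 against 22. Dlx1, Dlx2, Dlx5 and Dlx6, which act together in these neurons, had 626, 516, 486 and 779 counts against 22, 17, 12 and 20. Not enriched were Sst (195 against 36), Foxp1 (49 against 20) and Gad1 (25 against 18).

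The genes of the cortex itself divided. Of 26 cortical progenitor genes 14 were enriched, with medians of 171.5 H3K27me3 and 21 IgG counts. Nr2f2, of caudal and ventral cortex, had 592 against 6, Pax6, a master regulator of cortical progenitors, 999 against 16 (chromosome 2, 105667900 to 105669899), Dmrt3, of the medial cortex, 1077 against 24, and Emx1 1370 against 40. Lhx2, a cortical selector gene, had 421 against 30 and Emx2 387 against 17. Not enriched were Vim (65 against 26), Nes (123 against 28), Sox9 (110 against 29), Notch1 (46 against 39) and Fabp7 (29 against 36), structural and signalling genes of radial glia among them. The share of this list depends on the control: it ran from 34.6% to 69.2% over the pseudocounts, scalings, filters and controls tried.

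Genes of later steps of cortical neurogenesis divided too. Of 17 neurogenic and intermediate progenitor genes 7 were enriched. Eomes, the T-box gene of intermediate progenitors, had 778 against 11, and Neurog1 and Neurog2, proneural factors, had 1314 against 23 and 825 against 24. The Notch ligand genes Dll1 and Dll3 had 104 against 27 and 86 against 35, and Hes6, Btg2 and Neurod4 had 66, 37 and 16 counts against 29, 12 and 30. Of 30 cortical neuron genes 11 were enriched: Trp73, of Cajal-Retzius cells, had 1489 against 23, Neurod2 982 against 16, Fezf2, of deep layers, 646 against 13, and the vesicular glutamate transporter gene Slc17a7 699 against 24. Map2, Gap43, Stmn2, Sox4 and Nfib, which are in wide use in young neurons, had 14 to 59 counts and log2 ratios from -1.48 to -0.40.

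**Figure D3:**
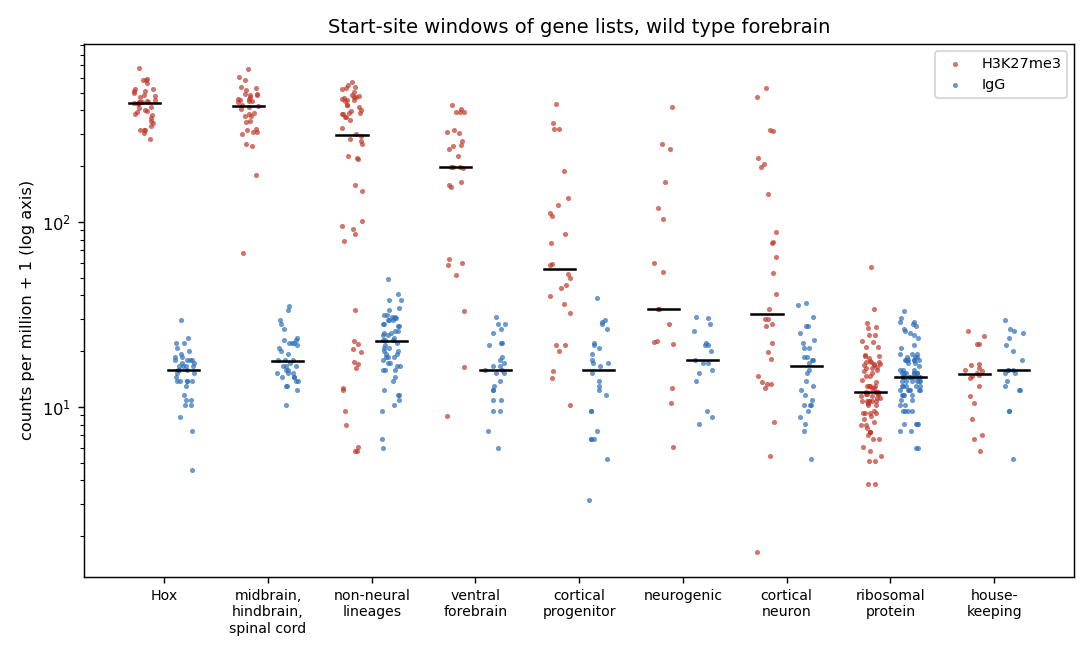
H3K27me3 (red, left) and IgG (blue, right) in CPM plus 1 on a log axis, 1 point per gene of 9 lists; black lines are medians. The median H3K27me3 count falls in order from the Hox list (1384 counts) over the ventral forebrain list (626) and cortical progenitor list (171.5) to housekeeping genes (44.5), while the median IgG count of these 4 lists is 21 in each.

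The tissue label was checked against defining markers with the wild type H3K27ac library. The forebrain genes Emx2, Sox2, Pax6 and Emx1 had 74, 90, 59 and 91 H3K27ac counts, and Lhx2 had 34. Hoxa9, Hoxb9, Hoxc9, Hoxd9, En1 and Gbx2 had 18, 28, 12, 16, 28 and 31. Lhx2 and Gbx2 lay 3 counts apart, and 1 HoxD gene, Hoxd10, had 40 H3K27ac counts, above Lhx2. All 11 genes were enriched for H3K27me3. The neuronal genes Tubb3, Stmn2, Neurod6 and Dcx were not enriched (126 against 17, 59 against 50, 39 against 28, and 2 against 9 counts), and Dcx rests on few reads. Counts of histone marks do not measure expression.

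Markers of other cell types varied gene by gene. Beside the 6.68% of protein-coding genes, 7 of 20 endothelial, 8 of 18 mesenchyme and pericyte, 4 of 13 oligodendrocyte, 2 of 12 astroglial, 2 of 17 erythroid (11.8%) and 1 of 20 microglia and macrophage genes were enriched. The enriched ones included Sox17, Sox7 (1395 against 32) and Flt1, a VEGF receptor (1458 against 26), among endothelial genes, Foxc2, Twist1 and Foxc1 (1444 against 21) among mesenchymal ones, and Sall1 (560 against 29) in the microglia list. Among members that were not enriched, Pecam1 had 17 against 26 counts, Cdh5 55 against 49, Cx3cr1 29 against 39, Csf1r 40 against 30, Hbb-y 18 against 27, Alas2 5 against 22 and Mog 18 against 58.

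Secreted and membrane-bound signals and some of their receptors were marked in part, read beside the 6.68% of protein-coding genes. Of 19 Wnt genes 14 were enriched, led by Wnt10b (1741 against 34), Wnt11 (1294 against 25) and Wnt1, of the midbrain (1651 against 33), and Wnt7a, Wnt5b and Wnt8a were among those that were not (159 against 34, 97 against 27 and 97 against 61). Of 20 Bmp and Gdf genes 10 were, led by Gdf7, of the roof plate (1603 against 38), and of 22 Fgf genes 9, led by Fgf8, of the rostral midline (1467 against 27). Of 22 Eph receptor and ephrin genes 4 were (18.2%), led by the receptor gene Epha8 (674 against 33). Of 29 semaphorin and plexin genes only the receptor gene Plxnd1 was (378 against 22), a share of 3.45% that is not above that of all protein-coding genes.

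Channels and receptors of mature neurons were enriched above the 6.68% of protein-coding genes. They were 21 of 92 potassium channel genes, among them Kcnk4 (1240 against 14 counts) and Kcnh3 (1304 against 26), and 10 of 45 glutamate and GABA receptor genes, led by Gabbr2 (627 against 16), Grm6 (910 against 27) and Grin2c (971 against 31). The glutamate receptor subunit genes Gria1, Gria2 and Grin2b had 44 to 104 counts and were not enriched. Collagen genes were enriched in 12 of 44 cases, with the neighbours Col4a1 and Col4a2, whose windows share reads, at 532 and 531 against 21 and 21.

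Polycomb genes, cell cycle inhibitors and imprinted genes are read beside the 6.68% of protein-coding genes. In PRC1 4 of 21 genes were enriched, among them Cbx8, a reader of the mark, with 1086 against 15 counts, Bmi1 with 296 against 8 and Pcgf1 with 440 against 30. In PRC2 only the accessory gene Epop was (738 against 12) of 13 measured, a share of 7.69% near that of all genes, while Ezh2, Eed and Suz12 had 36, 31 and 28 against 32, 20 and 20. Of 7 CDK inhibitor genes 3 were enriched: Cdkn2a, which encodes the p16 and ARF proteins, had 1123 against 23, Cdkn2b 568 against 32 and Cdkn2c 287 against 25. Of 41 imprinted genes 9 were, led by Sfmbt2 (747 against 18), Rasgrf1 (757 against 21) and Zdbf2 (650 against 20); a mark on 1 parental allele only cannot be told from these counts.

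Genes in general use were not marked. None of 20 housekeeping genes was enriched, at 2-fold included, with medians of 44.5 H3K27me3 and 21 IgG counts. None of 85 ribosomal protein and 36 respiratory complex I genes was enriched; with the libraries scaled to an equal median window 5.88% and 8.33% were, and at 2-fold 10.6% and 8.33%. In the proteasome list 3 of 39 genes were enriched, which at 7.69% is near the 6.68% of all protein-coding genes. They were Psmb8 (1079 against 30) and Psmb9 (552 against 19), which encode immunoproteasome subunits, and Psmd5 (254 against 25). The constitutive subunit genes Psmb5 and Psmb6 had 46 and 34 against 27 and 17.

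Large families of sensory and structural genes lay at the other end. None of 1116 olfactory receptor genes was enriched, with medians of 14 H3K27me3 and 22 IgG counts. With the libraries scaled to an equal median window 0.0896% were. None of 350 vomeronasal receptor, 57 clustered protocadherin or 53 keratin-associated protein genes was enriched. Keratin genes (1 of 50, Krt8 with 452 against 29), cytochrome P450 genes (5 of 93), zinc finger genes of the Zfp series (7 of 375) and replication-dependent histone genes (1 of 71) stayed near or below 6.68%. The P450 genes above the rule were led by Cyp24a1 (1266 against 33), Cyp1b1 (856 against 25) and Cyp26a1, which degrades retinoic acid (1298 against 40).

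The lowest ratios are given for genes with at least 50 IgG counts, so genes with fewer counts and lower ratios are left out. Psg25, a placental glycoprotein gene, had 7 H3K27me3 counts against 60 IgG counts (log2 ratio -3.76, interval -5.64 to -3.13), and Impg1, of the photoreceptor matrix, 12 against 68 (-3.36). The other 8 of the lowest 10 were Olfr397, Olfr159, Olfr849, Casp14, Oit3, Psd3, Smok2a and Oog4, with 11 to 34 counts against 50 to 119.

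**Figure D4:**
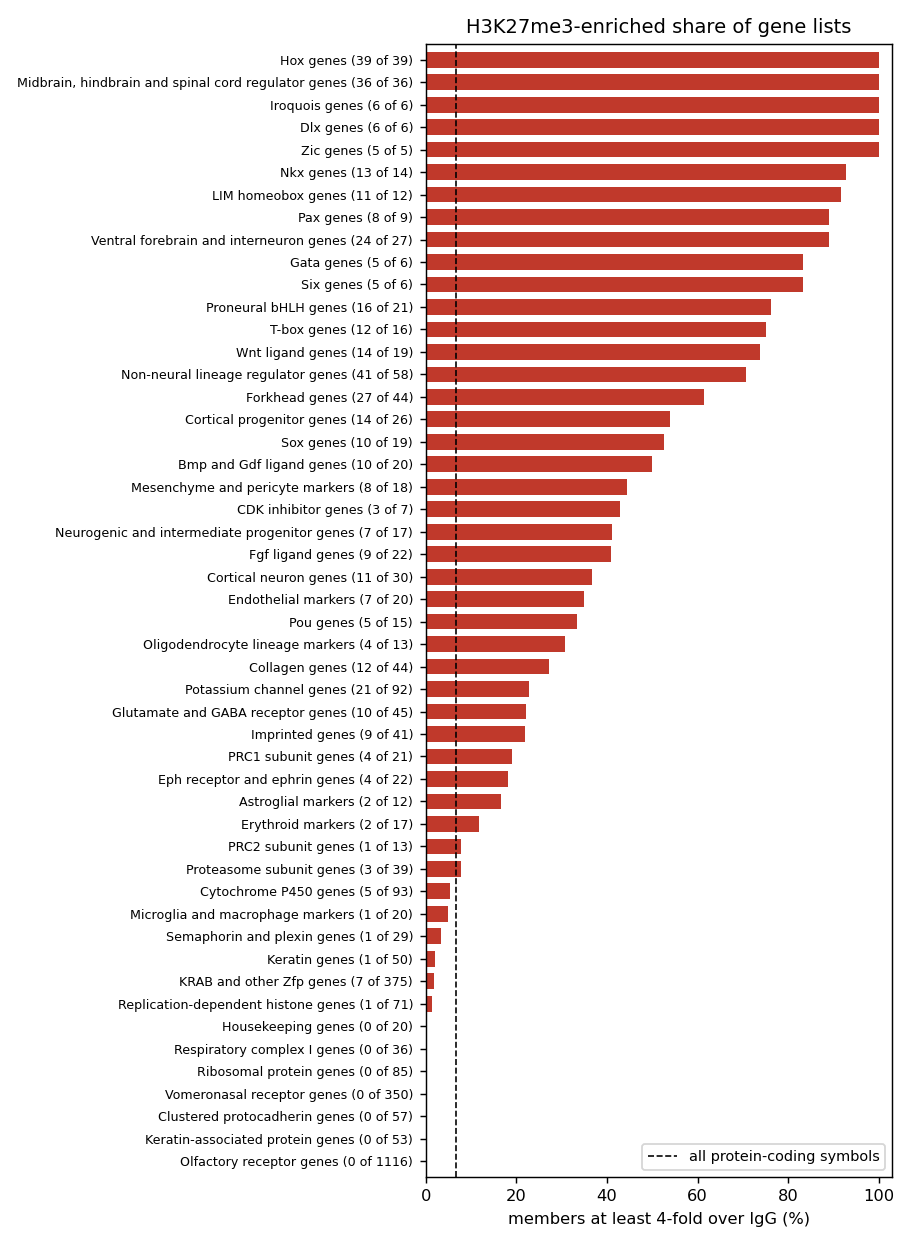
Share of the members of 50 gene lists that were at least 4-fold over IgG, in percent; the dashed line is the 6.68% of all protein-coding genes, and the numbers of members stand in the labels. Hox genes and regulators of other brain regions reach 100%, and olfactory receptor, vomeronasal receptor, ribosomal and housekeeping genes stand at 0.

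Chromosome X carried few enriched genes. They were 25 of 935 protein-coding genes (2.67%), against 1405 of 20209 on the autosomes (6.95%). Its windows also held fewer reads in each library, with medians of 12 H3K27me3, 12 IgG and 12 input counts on X against 38, 26 and 23 on the autosomes, and the part of depth in the difference was not tested. Among genes with at least 20 counts over both libraries the shares were 3.67% and 7.35%. The highest on X were Gpr50, a melatonin receptor-related gene (665 against 11), Sowahd (575 against 14), Esx1, of the placenta (316 against 10), and Dusp9 (324 against 14). Zfp711, Bex3 and Bex4 entered with 18, 14 and 12 H3K27me3 counts and 0 IgG counts, which only a pseudocount makes a ratio.

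Enriched windows lay side by side. They formed 1436 groups of neighbouring start sites no more than 20 kb apart, of which 1018 held a single window, 15 held at least 5 and the largest 36. When a start site was enriched, the next one 2 to 5 kb away was too in 65.7% of cases, against 1.89% when it was not. At 100 to 200 kb the shares were 7.94% and 3.52%. Windows within 2 kb of each other were left out of this count, because they share reads.

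The Hox clusters made the 4 largest groups, with 36, 16, 16 and 16 windows; Hoxb13 and Hoxd1 lay outside them. Then came Six3, a gene of the anterior forebrain and eye, whose 10 windows within 9.32 kb overlap into 1 set (905 against 22 at Six3 itself), a group of 8 windows on chromosome 17 beside H2-T3, and the Dlx5 and Dlx6 pair with their antisense genes (6 windows). Vax2, of the ventral eye (1872 against 34), and Wt1 with Wt1os made groups of 6 each. Among groups of 5, Wnt10b and Wnt1 lay with Arf3 and Ddn on chromosome 15, and Zic5 and Zic2 on chromosome 14.

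Some groups held no developmental regulator. The adhesion genes Icam1, Icam4 and Icam5 (822, 409 and 970 against 27, 31 and 28 counts) made a group of 6 windows on chromosome 9, and the metallothionein genes Mt2 and Mt1 (665 and 669 against 21 and 32) a group of 4 on chromosome 8, beside Mt3, which was not enriched (33 against 31). The heat shock genes Hspa1b and Hspa1a had 153 against 10 and 98 against 4. On chromosome 17 a group of 8 windows from 36145018 to 36182430, next to the MHC class I gene H2-T3 (275 against 57), ran up to 1051 against 12 at Gm20478. Hspa1a and Hspa1b are near-identical copies, and MHC class I genes and pseudogenes resemble each other, so that the placing of reads between copies is uncertain there.

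The summit list gave another view of the landscape. Of its 10662 summits 3211 (30.1%) lay within 1 kb of a start site and are called promoter summits, 4206 (39.4%) lay 1 to 10 kb away and are called near, and 3245 (30.4%) lay farther and are called distal. The scores are the authors' and serve only to rank summits within the list. Their medians were 11.7 for promoter, 7.05 for near and 6.32 for distal summits. Promoter summits lay in a RefSeq gene in 78.8% of cases and distal ones in 59.1%.

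Of the 100 highest scores 35 were at promoter and 7 at distal summits, and of the 1000 highest 45.6% and 10.7%. The highest of all, 464, lay 5.86 kb from Lbx1, and the next, 402, lay 5.11 kb from Hmx2, a homeobox gene beside Hmx3 (1605 against 39 counts). Lmx1b, of dopaminergic and serotonergic neurons, had a summit of 374 at 0.730 kb. The fifth highest, 360, lay at Gm42418 on chromosome 17, 1 of 4 windows with the most H3K27me3 counts in the table. These 4, at Gm26917, Gm42418, AY036118 and CT010467.1, had 3504 to 5678 H3K27me3 counts but also 989 to 1315 IgG counts, and their log2 ratios of 0.56 to 0.95 are below the rule.

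Distal summits are named by the nearest start site. Among the highest 10 by score, they lay 26.2 kb from Gata4 (score 304; 831 against 41 counts at its start site), 15.3 kb from Tnfrsf25, a death receptor gene (272; 989 against 50) and 10.3 kb from Lhx4 (266). Others lay near Nr5a2, Wnt10a, Wnt8b, of the cortical hem, and Nfix, a factor of late progenitors, at 11.7, 11.9, 18.2 and 13.7 kb. A further pair had predicted genes nearest, Gm22698 (62 against 20) and Gm4881 (1335 against 21), at 13.3 and 12.6 kb. At Lhx4 and Nr5a2 the start site itself was not enriched (255 against 59 and 92 against 22). The start site nearest to a distal summit was enriched in 26.8% of cases, against 32.5% for promoter summits and 42.5% for near ones.

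The next summit lay within 10 kb for 50.4% of promoter, 82.3% of near and 78.2% of distal summits. Joined at up to 10 kb, the 10662 summits formed 5319 groups, of which 386 held at least 5 summits. The largest held 27 over 92.4 kb beside HoxC, near Smug1, followed by 24 over 83.9 kb at Olig1, the oligodendrocyte and ventral progenitor gene (1241 against 38), and 19 over 49.6 kb at H2-T3.

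Enriched windows and summits met loosely. A summit lay at most 1 kb from the start site in 54.8% of the enriched windows, and at most 5 kb away in 88.8%, against 4.50% and 7.20% of the other windows. Stronger windows held one less often: 44.6% of those at least 8-fold over IgG and 32.8% of those at least 16-fold. Of windows whose nearest summit lay 1 to 2 kb away 38.8% were enriched, against 29.5% of those with a summit within 0.5 kb, and beyond 100 kb it was 0.0446%. Of all windows 6.40% held a summit.

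Promoter summits, divided by score into 4 classes of 802 or 803, differed. In the highest class, with scores from 35.1 to 374, 94.0% of the nearest windows were enriched, with a median of 591 H3K27me3 and 33 IgG counts, and 2.24% had an H3K27ac summit within 500 bp. In the lowest class, with scores from 2.03 to 5.93, 2.86% of the windows were enriched, with 99 and 30 counts, and 23.9% had an H3K27ac summit. The median H3K27ac count was 43 in the highest and 64 in the lowest class, and the share with an RNA-Pol2 summit was 2.86% and 15.1%.

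Summits shared with other libraries showed the same gradient with distance. An Eed summit lay within 500 bp of 61.4% of promoter, 20.6% of near and 14.2% of distal summits. For H3K27ac the shares were 14.1%, 2.92% and 1.91%, and for RNA-Pol2 9.75%, 2.00% and 0.616%. How far the share of promoter positions in those lists sets these values was not tested.

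**Figure D5:**
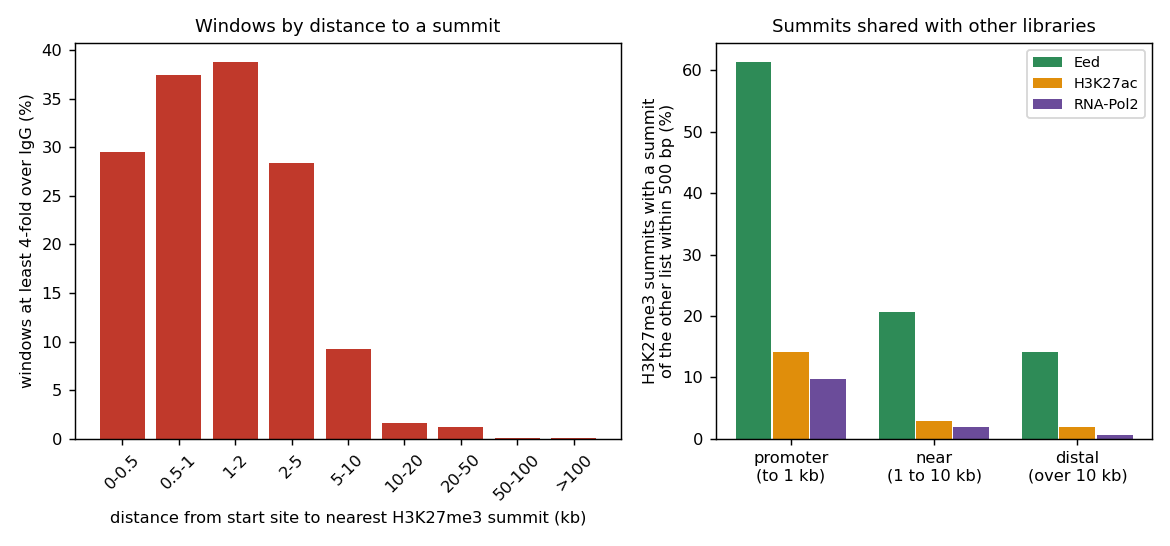
Left, share of windows at least 4-fold over IgG, in percent, by distance in kb from the start site to the nearest H3K27me3 summit. Right, share of H3K27me3 summits with an Eed, H3K27ac or RNA-Pol2 summit within 500 bp, for promoter, near and distal summits. The left bars are highest, at 38.8%, for 1 to 2 kb and not for the nearest distances, and the right bars fall from promoter to distal summits in each library.

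The other wild type libraries differed between enriched and other promoters. At the 1430 enriched protein-coding genes the median was 58.3 CPM of Eed, 21.6 CPM of H3K27ac and 23.8 CPM of RNA-Pol2. At the 19714 other protein-coding genes, chromosomes Y and M left out, it was 14.2, 25.7 and 21.8 CPM. An H3K27ac summit lay within 1 kb of 4.62% of enriched and 22.9% of the 19966 other start sites (Y and M included), an RNA-Pol2 summit at 4.48% and 10.7%, and an Eed summit at 86.4% and 52.5%. Input was 23.6 CPM and 21.6 CPM at the same genes.

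H3K27ac did not fall evenly with the ratio. From genes with a log2 ratio below -2 to those between 0 and 1, median H3K27ac was higher in each band, at 5.14, 14.9, 31.4 and 33.4 CPM. Above that it was lower in each band, at 30.3, 24.2, 21.6 and 14.4 CPM, the last for the 277 genes above 4. Eed was higher in each band up to 67.4 CPM.

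A few enriched genes had H3K27ac counts far above the median of 42 at enriched genes. Unk had 137 (57 H3K27me3 against 5 IgG counts), Pou3f2, an upper-layer and neural progenitor factor, 132 (242 against 21), Mypop 123, Rgs9bp 119 (612 against 45), Zfp36l2 116 and Foxp2, of deep-layer neurons, 111 (160 against 16). Their log2 ratios, 2.05 to 2.57, lie at the low end of the enriched genes. Whether both marks lie on the same chromosomes or in different cells cannot be told apart in bulk tissue.

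Eed and H3K27me3 coincided at most enriched genes but not at every one. At 300 of the 1430 enriched protein-coding genes (21.0%) Eed CPM was below input CPM in the same window, against 54.1% of the other genes. They included Pax6 with 14 Eed counts against 27 input counts, Sox17 with 9 against 28, Nr2f2 with 10 against 26, Hoxa10 with 12 against 26 and Fezf2 with 13 against 36. An Eed summit lay within 1 kb of 149 of the 300 start sites, against 86.4% of all enriched and 52.5% of the other protein-coding genes. Within 5 kb it was 261 of the 300 (87.0%), at 4.03 kb for Sox17, and the share of all genes at that distance is not given here. The 2 groups of enriched genes differed little in H3K27me3, with median log2 ratios of 2.94 for those with Eed below input and 3.04 for the rest.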

How the data were processed

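Count tables and peak summits of mouse embryonic day 12.5 forebrain were analysed, using 7 of the 12 libraries, with 1 library per target. The deposited promoter tables hold whole-number counts of reads per window, although their names say RPKM, and the authors' summit lists give a −log10 score; whether of p or q is not stated. Per the submitters' processing notes, the tools were ChIPseeker 1.22.1, deepTools 3.4.0, MACS2 2.2.7.1 and Bowtie2 2.4.1, on build mm10. Counts were divided by the table's total, a pseudocount of 1 CPM was added, and a symbol with several windows kept the one with most counts. Named genes were the 20 highest by ratio and by level, the 10 lowest with at least 50 IgG counts, up to 4 high and 2 low members of each of 50 lists, members of the largest groups, and markers; further genes were named after their values were seen. Members and lists were chosen with earlier results of these data known. Python 3.11.15, numpy 2.4.6, pandas 2.3.3, scipy 1.17.1 and matplotlib 3.10.9 were used, and the scripts were tested on simulated data. Intervals cover counting error alone: PCR copies carry no identifiers, so reads may repeat a molecule. Some genes are not reported here.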

Additional observations from a re-analysis of the deposited data

How the results depend on the processing

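Against 2087 enriched windows, scaling both libraries to the same median window gave 3721, the 2-fold rule 3959 and the 8-fold rule 1130. Against 5459 windows under IgG, a pseudocount of 5 CPM gave 339, the same-median scaling 346, the EedcKO IgG control 2822, 2-fold 26763 and 8-fold 313. The share of promoter summits was 30.1% within 1 kb, 40.66% within 2 kb, 56.95% within 5 kb and 38.45% among the higher-scoring summits. Enriched windows with a summit were 54.8% within 1 kb, 88.84% within 5 kb and 44.6% at 8-fold. Within 250 bp, within 1 kb and among the higher-scoring summits, the summits shared with H3K27ac were 4.192%, 7.391% and 4.896% (5.97% within 500 bp), with RNA-Pol2 2.898%, 4.746% and 3.47% (3.91%), and with Eed 18.55%, 43.16% and 42.47% (31.0%). At 8-fold, median CPM at enriched windows was 18 for H3K27ac (20.1 at 4-fold), 21.75 for RNA-Pol2 (22.6) and 53.73 for Eed (50.7). The cause of these shifts was not tested. The split between enriched windows and those under IgG turned round with the same-median scaling, as given above. The median log2 ratio changed sign in 15 of 50 lists, in 10 with that scaling, 6 with wild type input and 5 with EedcKO IgG, none of them with a median of 2 or more. Examples are housekeeping genes (0.85 with that scaling, -0.13 before), endothelial markers (0.67 with input, -0.31 before) and PRC2 genes (-0.61 with EedcKO IgG, 0.09 before). Single genes were not recomputed under the alternatives. Of the shares and medians of lists, 100 were counted as moved and 600 were not, but this label does not follow the size of the change. The Sox share counted as not moved, although it was 52.6% in the main setting and 36.8% with EedcKO IgG. The Hox median counted as moved, at 4.80 in the main setting and 4.49 with a pseudocount of 5 CPM. The CpG alternatives were not run, since under 80% of the genes matched a promoter. No paired analysis was possible because each target has 1 wild type library. With 25 IgG counts in the median window, ratios of single windows carry a wide counting error.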
